A study of Mus musculus with 10 samples.

Results

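The genes of the mitochondrial respiratory chain were described across cultures of Th17, Th2 and Th0 cells, which are mouse T helper lymphocytes kept under different cytokine conditions. Members were chosen by gene symbol, without regard to their values: genes of complex I (Nduf), complex II (Sdh), complex III (Uqcr), complex IV (Cox followed by a subunit number from 4 to 8) and complex V (Atp5). On the arrays 91 of 22180 measured genes met this rule, of which 42 belonged to complex I by symbol, 8 to complex II, 7 to complex III, 17 to complex IV and 17 to complex V. By role, 70 of them encode subunits used in most tissues, 12 encode assembly factors (8 Ndufaf and 4 Sdhaf genes), 8 encode subunit paralogs known mainly from particular tissues, and Cox7a2l encodes a factor that joins complexes III and IV into supercomplexes. Another 8 symbols (Cox6c, Ndufb2, Ndufb4, Ndufb4b, Ndufb4c, Ndufs6, Ndufs6b and Uqcr10) were read only by probe sets shared with other symbols and were not analysed here.

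The respiratory chain passes electrons from NADH, through complex I, and from succinate, through complex II, to ubiquinone, then through complex III and cytochrome c to complex IV, which reduces oxygen. Complexes I, III and IV pump protons across the inner mitochondrial membrane, and complex V, the ATP synthase, makes ATP as protons flow back. Most subunits are encoded in the nucleus and imported, and a small number are encoded by mitochondrial DNA, so that complexes I, III, IV and V are built from products of both genomes, whereas the subunits of complex II are all nuclear. Resting T cells rely on oxidative phosphorylation, and activated T cells enlarge both glycolysis and their mitochondria.

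Expression was measured on 10 Affymetrix arrays, 1 for each culture, of CD4+ lymphocytes from spleens of female wild-type Balb/c mice aged 10 to 14 weeks. Every culture was stimulated through its T cell receptor with anti-CD3 at 4 µg/ml and through its costimulatory receptor with anti-CD28 at 30 ng/ml. Th17 cultures (n = 4) were given IL-23 (10 ng/ml), TGF-beta (5 ng/ml) and IL-6 (20 ng/ml) together with anti-IFN-gamma (10 µg/ml). Th2 cultures (n = 3) received IL-4 at 100 ng/ml with the same dose of anti-IFN-gamma. Th0 cultures (n = 3), the control, received no polarising cytokine and no anti-IFN-gamma, so in both comparisons with Th0 the cytokines and that antibody cannot be told apart. Cultures had their medium exchanged after 72 h, and no harvest time is stated in the labels. Replicates are titled biological. Whether different mice supplied them is not stated, so a p-value here reflects only the spread among these cultures, which may be technical.

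Promoter sequences are shown for 5 members on which the later results turn: Sdha, Sdhb and Sdhd, complex II subunits whose patterns over the arrays differ, the assembly factor Ndufaf4, which differs in direction from most members, and the complex I subunit Ndufa8. Each run is the 250 bases before the annotated start, from RefSeq, assembly GRCm38.p6, written 5′ to 3′ on the gene's strand. Capitals mark matches, on either strand, to NRF1 (GCGCA, any base, GCGC), to the ETS family that includes GABPA (CCGGAAG) or to YY1 (AA, any base, ATGGC), factors known to bind promoters of nuclear genes for mitochondrial proteins.
Sdha, chr13:74350241-74350490, minus strand: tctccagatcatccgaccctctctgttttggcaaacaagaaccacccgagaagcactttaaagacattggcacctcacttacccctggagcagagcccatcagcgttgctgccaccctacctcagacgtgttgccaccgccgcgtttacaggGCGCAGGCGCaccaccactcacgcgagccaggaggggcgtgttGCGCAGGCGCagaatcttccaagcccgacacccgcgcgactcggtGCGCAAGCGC
Sdhb, chr4:140961021-140961270, plus strand: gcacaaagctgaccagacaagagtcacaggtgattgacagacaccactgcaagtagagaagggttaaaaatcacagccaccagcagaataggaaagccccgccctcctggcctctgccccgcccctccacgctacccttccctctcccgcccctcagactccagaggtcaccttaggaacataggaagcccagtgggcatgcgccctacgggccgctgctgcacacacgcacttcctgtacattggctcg
Sdhd, chr9:50603850-50604099, minus strand: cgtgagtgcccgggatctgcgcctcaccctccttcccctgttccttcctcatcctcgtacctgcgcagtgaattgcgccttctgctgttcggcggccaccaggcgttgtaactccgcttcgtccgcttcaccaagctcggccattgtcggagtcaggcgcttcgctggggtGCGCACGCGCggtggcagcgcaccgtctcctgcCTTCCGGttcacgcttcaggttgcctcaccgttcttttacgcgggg
Ndufaf4, chr4:24897833-24898082, plus strand: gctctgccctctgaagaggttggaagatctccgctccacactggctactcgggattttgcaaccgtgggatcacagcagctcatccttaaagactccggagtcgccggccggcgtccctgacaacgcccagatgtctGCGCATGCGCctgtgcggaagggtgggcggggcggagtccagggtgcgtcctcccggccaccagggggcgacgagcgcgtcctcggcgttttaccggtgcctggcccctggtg
Ndufa8, chr2:36049339-36049588, minus strand: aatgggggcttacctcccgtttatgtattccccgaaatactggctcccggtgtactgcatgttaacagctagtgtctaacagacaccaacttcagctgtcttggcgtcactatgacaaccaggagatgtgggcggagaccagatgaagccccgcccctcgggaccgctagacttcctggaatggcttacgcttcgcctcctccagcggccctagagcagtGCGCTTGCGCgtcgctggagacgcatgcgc

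Of the 91 members, 76 were matched by symbol to the RefSeq promoter table, with 81 promoters in all. An NRF1 match stood in 16.0% of these 81 promoters, against 3.74% of all 32851 promoters of the table in windows of the same length. The ETS letters were found in 19.8% of member promoters and in 6.91% of all promoters. For YY1 the shares were 9.88% and 3.91%, and at least 1 of the 3 motifs stood in 39.5% of member promoters, against 13.4% of all promoters. The CCAAT letters were about as common in both, at 39.5% and 33.8%, as was TATAAA, at 9.88% and 12.4%. Member promoters were also richer in G and C, with a median of 57.2%, against 52.4% over all promoters, so these shares compare sets of unlike base composition. Among the promoters shown, Sdha held 3 NRF1 matches, Ndufaf4 and Ndufa8 1 each, and Sdhd 1 NRF1 and 1 ETS match. Sdhb held 0 matches in this window.

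Values are log2 units of RMA (robust multi-array average), in which a difference of 1 is a 2-fold change, and the deposited table ran from 1.49 to 13.8. The arrays did not separate by group on the first principal component, which held 35.8% of the variance and was the only one examined. On it, Th17 replicate 4 lay at 37.5, Th2 replicate 2 at 38.8 and Th2 replicate 3 at 55.8. The remaining 7 arrays lay at -0.96 or below. Some results are also given without these 3 arrays, and others given only over all arrays moved too, some with a change of sign. T cell identity genes such as Cd3e and Cd4 (10 genes) averaged 9.17, 9.21, 9.25 and 8.68 on Th17 replicates 1 to 4, 9.38, 8.71 and 8.72 on Th2 replicates 1 to 3, and 9.11, 9.61 and 9.05 on Th0 replicates 1 to 3, so that the 3 arrays that stood apart were the lowest. Il17f, a Th17 cytokine, was 9.55 to 10.94 on Th17 arrays and 4.98 to 5.68 on Th0 arrays (limma adjusted p = 0.000676). Gata3, the master regulator of Th2 cells, was 7.14 to 8.15 on Th2 arrays and 7.43 to 8.14 on Th0 arrays, so that gene did not set Th2 apart from Th0. The cytokine gene Il5 was 5.70 to 6.61 on Th2 arrays and 4.26 to 5.40 on Th0 arrays (limma adjusted p = 0.767). Of 9 polarisation markers, 7 had a higher mean in Th2 than in Th0, up to 1.41 for Ifng. The other 2 had a lower mean, and 0 were called. Markers of basophils and mast cells were high on some arrays of 2 groups: their 11-gene mean was 3.58, 5.45, 5.47 and 3.31 on Th17 replicates 1 to 4, 4.01, 3.24 and 3.37 on Th2 replicates 1 to 3, and 6.89, 3.33 and 4.07 on Th0 replicates 1 to 3. Single markers of other cells varied too. Ighm, from the B cell list, was 4.71 on Th17 replicate 4, 5.36 and 5.47 on Th2 replicates 2 and 3, and 6.79 to 10.41 elsewhere. S100a8, from the myeloid list, was 7.16 on Th17 replicate 1 and 3.74 or lower elsewhere. Klrd1, from a list of 10 CD8 and NK cell markers, was 2.29 higher in Th17 than in Th0 (limma adjusted p = 0.0381). It was 2.60 higher in Th17 than in Th2 (limma adjusted p = 0.0177). Of that list, 5 genes had a lower mean in Th17 than in Th0, and 2 had a lower mean in Th17 than in Th2. In such bulk cultures, fewer cells of a type and less RNA per cell cannot be told apart.

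No member passed the test in any comparison. Differences were tested with limma over all 22180 genes, with Benjamini-Hochberg adjustment and a threshold of 0.05 on the adjusted p. In Th17 against Th0, 0 of 91 members were called, where 0.104% of all genes were. In Th2 against Th0, 0 of 91 members were called, and the share over all genes was 0%. In Th17 against Th2, 0 of 91 members were called, where 0.0766% of all genes were. At an unadjusted p under 0.05 there were 0 members in Th17 against Th0 (5.17% of all genes), 6 in Th2 against Th0 (6.34% of all genes) and 1 in Th17 against Th2 (6.25% of all genes). The median SE of a member's difference was 0.20 in Th17 against Th0 and 0.21 in Th2 against Th0.

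Although no single gene was called, the differences from Th0 leaned one way. In Th17 against Th0, 75 of 91 members had a lower mean in Th17, where 53.2% of all genes did, and the median difference was -0.15, against -0.02 over all genes. In Th2 against Th0, 63 members had a lower mean in Th2 (52.3% of all genes), with a median difference of -0.13, against -0.01 over all genes. These 2 comparisons share their Th0 arrays and are not independent. Between the polarised groups, 54 members were lower and 37 higher in Th17 than in Th2 (51.6% and 48.4% of all genes), with a median of -0.02. By complex, the median difference in Th17 against Th0 was -0.17 for complex I, -0.12 for complex II, -0.07 for complex III, -0.12 for complex IV and -0.18 for complex V. The corresponding medians in Th2 against Th0 were -0.18, -0.19, -0.13, -0.02 and -0.14. In Th17 against Th2 they were 0.01, -0.01, -0.08, -0.03 and -0.02. The lean was no smaller among well-expressed genes: of 47 members with a mean of at least 7 over the arrays, 41 were lower in Th17 than in Th0 (median -0.16) and 35 were lower in Th2 than in Th0 (median -0.15), whereas the medians over all 1919 genes at that level were -0.02 and -0.03.

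**Figure D1:**
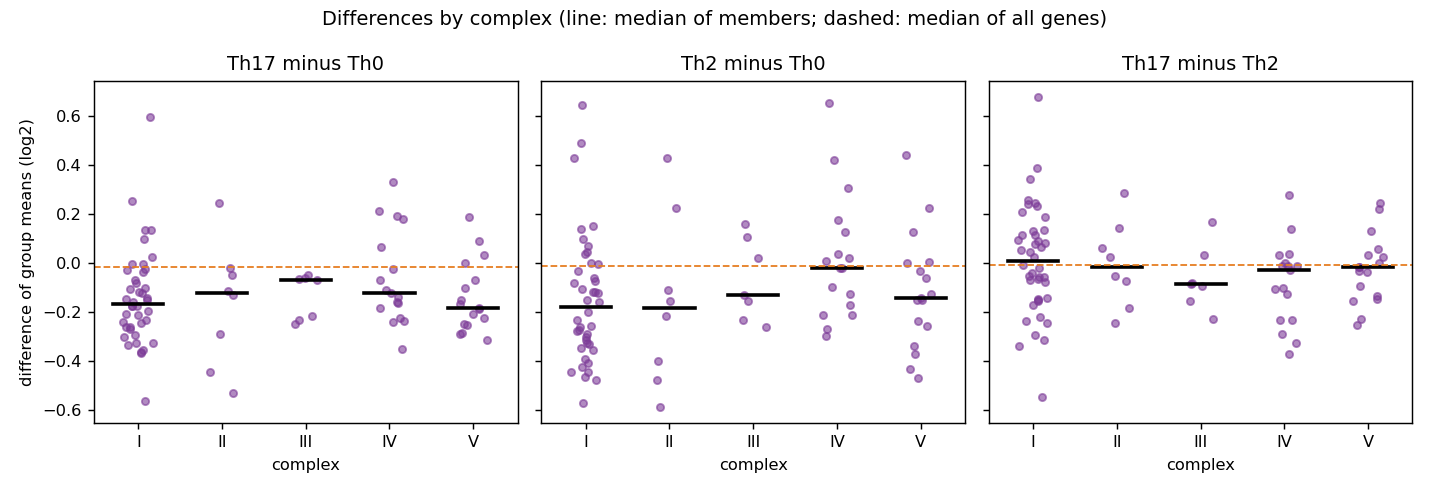
Difference of group means (log2) of each of the 91 members, 1 point per gene, by complex, in Th17 minus Th0, Th2 minus Th0 and Th17 minus Th2. Black lines are the median of a complex and the dashed line is the median over all genes; in the 2 comparisons with Th0 most points lie below 0, and in Th17 minus Th2 they centre near 0.

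Groups that did not overlap were few. In Th17 against Th0, 8 members had every Th17 array below every Th0 array (4.35% of all genes did): Atp5g2, Atp5j, Atp5j2, Atp5k and Atp5o of complex V, Ndufa8 of complex I, and Sdhb and Sdhaf4 of complex II. Cox4i2 and Ndufb11 had every Th17 array above every Th0 array (3.22% of all genes). Cox6a1 and Sdhb lay wholly below Th0 in Th2 (3.94% of all genes), and Atp5mpl, Cox4i2 and Ndufa4l2 lay wholly above it (4.48% of all genes). In Th17 against Th2, Atp5b, Ndufa12, Ndufaf6, Ndufb6 and Sdhaf3 lay wholly below (3% of all genes) and 0 members wholly above (2.6% of all genes). Of 91 members, most of these counts are near the shares over all genes. The 8 in Th17 against Th0 and, less so, the 5 in Th17 against Th2 were above them. Among genes with a mean of at least 7, 3 of 47 members and 104 of 1919 genes lay wholly below Th0 in Th17. At that level, 3 of 47 members and 95 of 1919 genes lay wholly below Th2 in Th17. Sdhb and Cox4i2 were the members that stood apart from Th0 in both polarised groups.

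The larger pattern lay within the groups. The mean over the 70 subunits was 7.88, 7.64, 7.77 and 7.49 on Th17 replicates 1 to 4, 8.01, 7.57 and 7.47 on Th2 replicates 1 to 3, and 7.83, 7.85 and 7.82 on Th0 replicates 1 to 3. Thus the 3 Th0 arrays lay close together, the Th2 arrays spanned the whole range (8.01 to 7.47), and the 3 arrays that stood apart on the first principal component had the 3 lowest means. Th2 replicate 1 was the highest of the 10 arrays for 35 of 91 members (38.5%), against 9.74% of all genes and 18.6% of genes with a mean of at least 7. The lowest array was Th17 replicate 4 for 28 members (30.8%, against 9.99% of all genes and 15.5% of genes at that level) and Th2 replicate 3 for 23 (25.3%, against 13.5% and 26.4%). Within Th2, 68 of 70 subunits were lower on replicate 3 than on replicate 1, with a median difference of -0.56, whereas 75.2% of genes with a mean of at least 7 were lower, with a median of -0.34. Replicate 2 was below replicate 1 for 62 of 70 subunits (median -0.47, against -0.14 for genes at that level). Within Th17, replicate 4 was below replicate 1 for 66 of 70 subunits, below replicate 3 for 65 and below replicate 2 for 45.

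**Figure D2:**
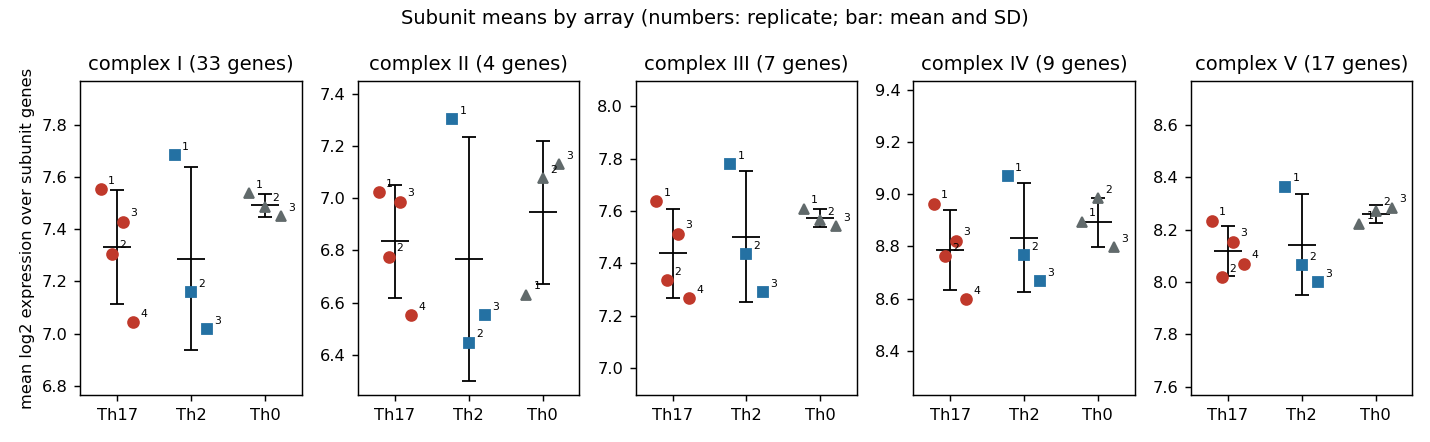
Mean log2 value of the subunits of each complex on each array (1 point per array, numbered by replicate), with the mean and SD of each group. Th2 replicate 1 is the highest Th2 array in all 5 panels, and the Th0 arrays lie closest together except in complex II, where Th0 replicate 1 is low.

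Th2 replicate 1 was the highest array in every complex, whereas the order of the low arrays differed between complexes. Complex I subunits (33 genes) averaged 7.55, 7.31, 7.43 and 7.04 on Th17 arrays, 7.68, 7.16 and 7.02 on Th2 arrays, and 7.54, 7.49 and 7.45 on Th0 arrays. For complex III (7 genes) the means were 7.64, 7.33, 7.51 and 7.27 on Th17 arrays, 7.78, 7.44 and 7.29 on Th2 arrays, and 7.61, 7.56 and 7.54 on Th0 arrays. Complex IV subunits (9 genes) averaged 8.96, 8.76, 8.82 and 8.60 on Th17 arrays, 9.07, 8.77 and 8.67 on Th2 arrays, and 8.90, 8.99 and 8.80 on Th0 arrays. In each of these complexes the groups overlapped, and Th17 replicate 2 lay below Th2 replicate 2 in complexes III and IV. Complex V subunits (17 genes) averaged 8.23, 8.02, 8.15 and 8.07 on Th17 arrays, 8.36, 8.07 and 8.0 on Th2 arrays, and 8.22, 8.27 and 8.28 on Th0 arrays, the narrowest range of the 5 complexes. Only 7 of these 17 were lower on Th17 replicate 4 than on Th17 replicate 2. Complex II subunits (4 genes) averaged 7.02, 6.78, 6.99 and 6.55 on Th17 arrays, 7.30, 6.45 and 6.55 on Th2 arrays, and 6.63, 7.08 and 7.13 on Th0 arrays, where Th0 replicate 1 lay apart from the other Th0 arrays (SD 0.27).

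**Figure D3:**
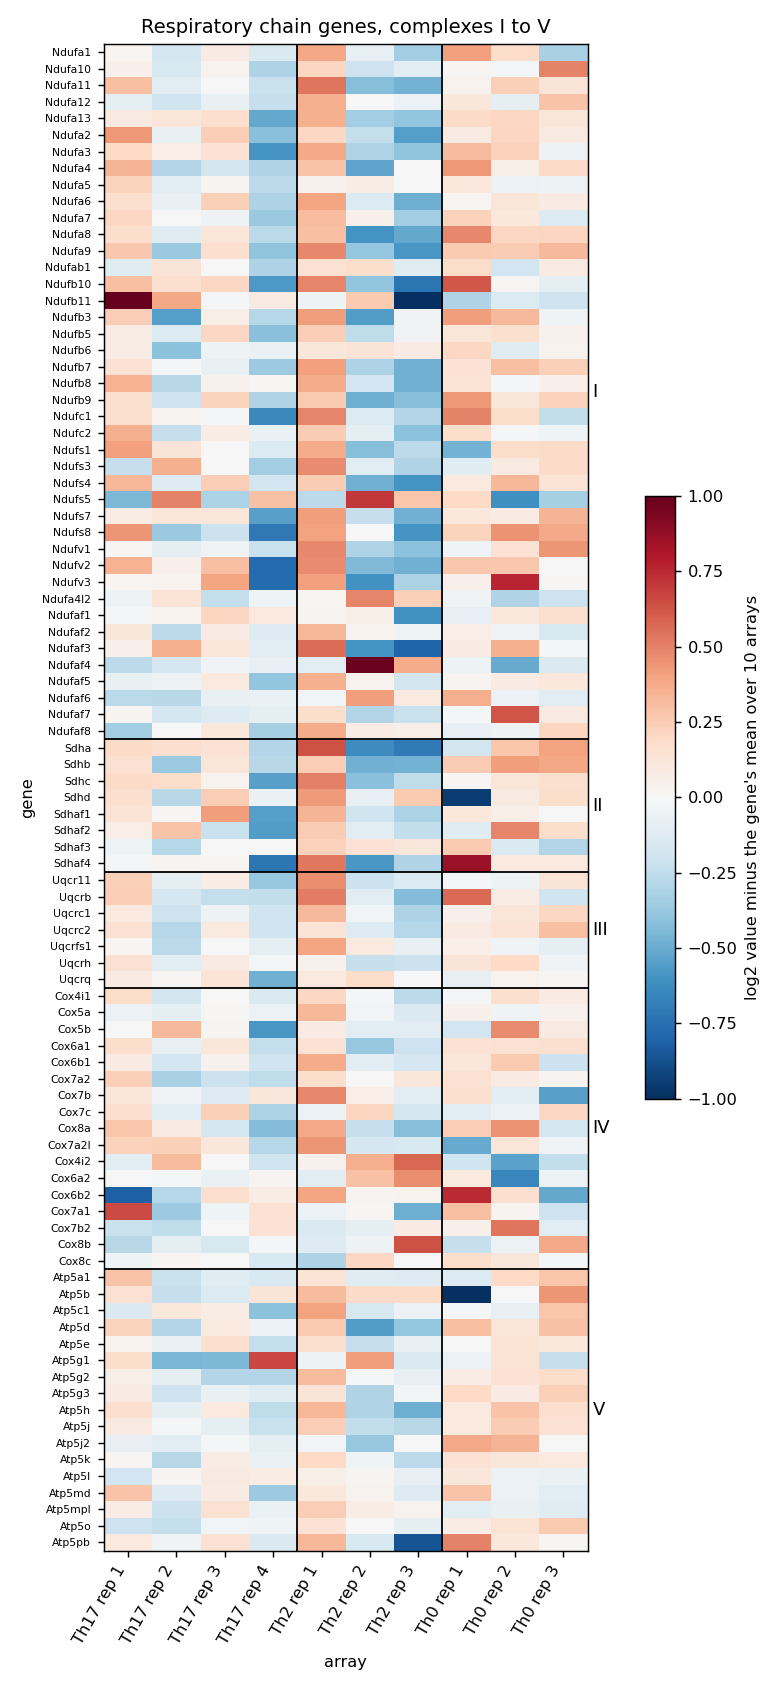
Each of the 91 members (rows, grouped by complex) on each of the 10 arrays (columns, Th17, Th2 and Th0), as the log2 value minus the gene's mean over the arrays, with colours from -1 to 1. The columns of Th2 replicate 1 (mostly above the gene's mean) and of Th17 replicate 4 and Th2 replicates 2 and 3 (mostly below it) stand out more than the borders between groups.

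The size and the sign of the Th2 difference depended on which Th2 arrays were used. Without Th17 replicate 4 and Th2 replicates 2 and 3, the median difference over the members was 0.16 in Th2 against Th0 with 17 of 91 members lower, -0.07 in Th17 against Th0 with 62 lower, and -0.25 in Th17 against Th2 with 80 lower. Only Th2 replicate 1 then stood for its group, and its variance was assumed to be that of the other groups. Of subunits described later, Uqcrc2, Uqcrh, Cox8a and Atp5g3 then differed by -0.03, -0.05, 0.20 and -0.04 in Th2 against Th0, against -0.26, -0.23, -0.27 and -0.24 over all arrays. Leaving out Th2 replicate 1 alone gave a median of -0.27 in Th2 against Th0 and 69 members lower. In that fit 431 genes were called (1.94%), and Ndufa8 was among them, 0.86 lower in Th2 than in Th0 (difference -0.86 ± 0.19 SE, limma adjusted p = 0.0469, with Th2 replicates 2 and 3 both below all 3 Th0 arrays). Over the 21 alternative fits its adjusted p ran from 0.0469 to 0.999. The median in Th17 against Th0 uses no Th2 array, so leaving out Th2 replicate 1 cannot move it. Leaving out Th17 replicate 4, alone or with Th2 replicates 2 and 3, moved it to -0.07. Single members changed sign: without the 3 arrays, Ndufv2 went from -0.20 to 0.06 and Sdhc from -0.13 to 0.04. Atp5g1 went the other way, from 0.03 to -0.19.

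Cell cycle genes, which were measured as a gauge of proliferation, were also highest on Th2 replicate 1. The mean of the 26 genes was 7.26, 6.26, 6.93 and 6.46 on Th17 arrays, 7.70, 6.07 and 6.11 on Th2 arrays, and 7.16, 7.63 and 7.66 on Th0 arrays. The lowest arrays were Th2 replicates 2 and 3, followed by Th17 replicate 2 and then Th17 replicate 4, an order that differs from that of the respiratory chain subunits. All 26 had a lower mean in Th17 than in Th0 and in Th2 than in Th0, with medians of -0.76 and -0.83, and 0 of them were called (7 and 8 had an unadjusted p under 0.05 by limma). Without the 3 arrays that stood apart, 26 of 26 were lower in Th17 than in Th0 (median -0.66), whereas 21 of 26 were higher in Th2 than in Th0 (median 0.21). The spread of values on an array moved too. The interquartile range over all genes was 2.09 on Th17 replicate 4 and 2.23 and 1.95 on Th2 replicates 2 and 3. It was 2.69 on Th2 replicate 1, 2.20 on Th0 replicate 1, which did not stand apart, and 2.35 to 2.53 elsewhere. Over all probe sets it ran from 1.95 to 2.41, which quantile normalization across these 10 arrays alone would not leave, so which arrays were normalized together is not known and differences between arrays carry that limit. The mean of the T cell identity genes, given above, was likewise lowest on the 3 arrays that stood apart. Single genes differed: Zap70 was highest on Th2 replicate 2 (8.64), and Cd5 was lowest on Th0 replicate 3 (8.40). The part of proliferation, of T cell content or of array quality in the respiratory chain values was not tested.

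Complex I takes electrons from NADH. Its named members were those with the smallest p in a comparison and those with the widest and narrowest spread over the arrays. Ndufs8, a core subunit that carries iron-sulfur clusters, had 7.24, 6.43, 6.59 and 6.08 on Th17 arrays, 7.20, 6.80 and 6.21 on Th2 arrays, and 7.02, 7.24 and 7.17 on Th0 arrays. Its Th17 replicate 1 lay at the level of Th0 and the other Th17 arrays below it, a difference of -0.56 ± 0.28 (SE) in Th17 against Th0 that did not pass (adjusted p = 0.999). Ndufv2, a core subunit of the NADH-oxidising end, varied most among well-expressed complex I subunits (SD 0.42 over the 10 arrays): 7.85, 7.55, 7.80 and 6.72 on Th17 arrays, 7.98, 7.06 and 7.02 on Th2 arrays, and 7.77, 7.77 and 7.49 on Th0 arrays. The 3 arrays that stood apart were its 3 lowest. Ndufa5, an accessory subunit of the matrix arm, varied least (SD 0.13), with 8.43 to 8.91 on Th17 arrays, 8.68 to 8.76 on Th2 arrays and 8.63 to 8.80 on Th0 arrays.

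Ndufaf4, an assembly factor of complex I, went the other way from most members. It had 6.77, 6.86, 7.0 and 6.95 on Th17 arrays, 6.91, 8.01 and 7.40 on Th2 arrays, and 6.98, 6.52 and 6.89 on Th0 arrays. The high Th2 mean came from replicates 2 and 3, while replicate 1 lay among the Th17 and Th0 arrays. Its difference was 0.64 ± 0.25 (SE) in Th2 against Th0 (adjusted p = 0.767, with 2 of 3 Th2 arrays above all Th0 arrays) and -0.55 ± 0.23 in Th17 against Th2 (adjusted p = 0.748). Without the 3 arrays that stood apart these became 0.12 and -0.04. The other 7 assembly factors of complex I gave differences in Th2 against Th0 between -0.42 for Ndufaf3 and 0.15 for Ndufaf2. Without those 3 arrays, Ndufaf3 was at 0.42, the other sign, and Ndufaf2 at 0.37. Over all 12 assembly factors, 10 were lower in Th17 than in Th0 (median -0.11) and 7 were lower in Th2 than in Th0 (median -0.06), and without the 3 arrays these were 7 (median -0.06) and 3 (median 0.23).

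A pair of complex I subunits was picked out after their values were seen. Ndufa8, an accessory subunit of the intermembrane space side, had 8.41, 8.12, 8.36 and 7.97 on Th17 arrays, 8.54, 7.64 and 7.73 on Th2 arrays, and 8.72, 8.45 and 8.45 on Th0 arrays. All 4 Th17 arrays and 2 of 3 Th2 arrays lay below all Th0 arrays, with differences of -0.33 ± 0.22 (SE) in Th17 against Th0 and -0.57 ± 0.24 in Th2 against Th0 (adjusted p = 0.999 and 0.767 by limma). Leaving out the 3 arrays that stood apart gave -0.24 ± 0.16 and 0.00 ± 0.22. Ndufb11, an X-linked accessory subunit of the membrane arm, had 6.84, 6.17, 5.77 and 5.87 on Th17 arrays, 5.73, 6.04 and 4.68 on Th2 arrays, and 5.48, 5.64 and 5.58 on Th0 arrays. It was the member with the largest positive difference in Th17 against Th0, 0.59 ± 0.32 (adjusted p = 0.999), with every Th17 array above every Th0 array.

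Complex II, succinate dehydrogenase, also acts in the tricarboxylic acid cycle. Sdhb, its iron-sulfur subunit, had 6.68, 6.17, 6.65 and 6.25 on Th17 arrays, 6.78, 6.05 and 6.06 on Th2 arrays, and 6.78, 6.95 and 6.92 on Th0 arrays. Every array of both polarised groups lay below every Th0 array, although Th2 replicate 1 and Th0 replicate 1 round to the same value. The differences were -0.44 ± 0.21 (SE) in Th17 against Th0 (95% interval -0.91 to 0.02, adjusted p = 0.972) and -0.59 ± 0.22 in Th2 against Th0 (-1.08 to -0.10, adjusted p = 0.767), and neither passed. The Th17 difference was -0.38 ± 0.18 and the Th2 difference -0.11 ± 0.25 when the 3 arrays that stood apart were left out. Sdha, the flavoprotein that oxidises succinate, had 7.75, 7.73, 7.71 and 7.27 on Th17 arrays, 8.20, 6.94 and 6.85 on Th2 arrays, and 7.38, 7.84 and 7.97 on Th0 arrays. Th2 held both its highest and its lowest arrays, and its differences of -0.11 ± 0.30 and -0.40 ± 0.33 from Th0 were within that spread (SD 0.75 in Th2). In the fit without those arrays Sdha was 0.00 ± 0.18 in Th17 against Th0 and 0.47 ± 0.25 in Th2 against Th0, the other sign.

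Sdhc and Sdhd anchor the enzyme in the membrane and bind ubiquinone. Sdhc had 7.34, 7.34, 7.19 and 6.61 on Th17 arrays, 7.66, 6.74 and 6.90 on Th2 arrays, and 7.17, 7.28 and 7.32 on Th0 arrays, an order close to that of Sdha, and its difference in Th2 against Th0 likewise was -0.15 over all arrays and 0.41 without those 3. Sdhd had 6.31, 5.87, 6.39 and 6.07 on Th17 arrays, 6.57, 6.06 and 6.41 on Th2 arrays, and 5.20, 6.23 and 6.32 on Th0 arrays. Its positive differences of 0.24 ± 0.27 (SE) in Th17 against Th0 and 0.43 ± 0.28 in Th2 against Th0 (adjusted p = 0.999 and 0.837) rested on Th0 replicate 1, which lay below all other arrays. That array also had the lowest Th0 values of Sdha, Sdhb and Sdhc, and it was the array highest in basophil and mast cell markers. The part of those cells in the Sdh values was not tested. Of the assembly factors, Sdhaf3, which helps to mature Sdhb, lay near the low end of the scale at 2.62 to 2.91 on Th17 arrays, 3.02 to 3.14 on Th2 arrays and 2.61 to 3.17 on Th0 arrays, with a difference of -0.24 ± 0.16 in Th17 against Th2 (adjusted p = 0.912).

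**Figure D4:**
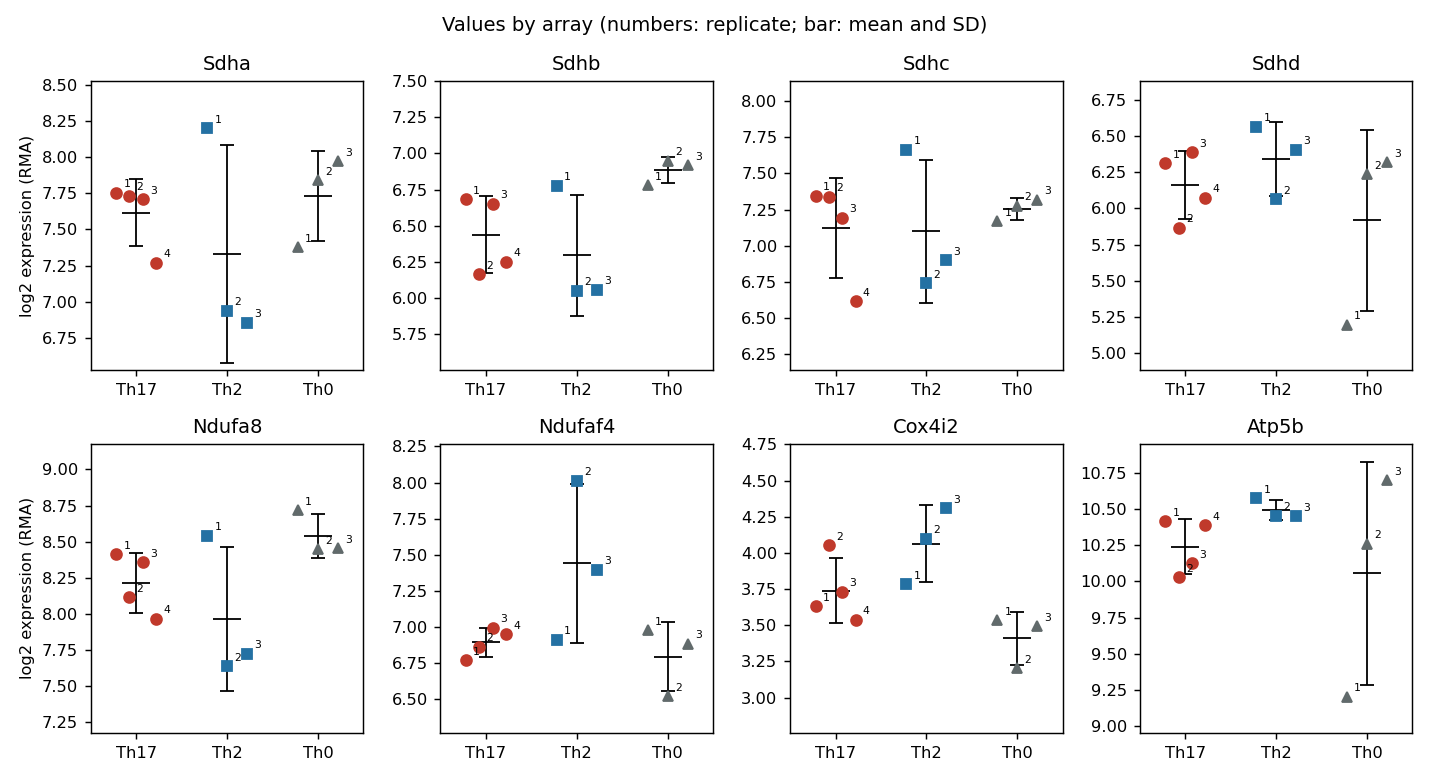
Log2 value of 8 members on each array (points numbered by replicate), with the mean and SD of each group, in panels that all span 2 log2 units. Sdhb lies below Th0 in both polarised groups, Th2 replicate 1 sits far from the other Th2 arrays for Sdha, Sdhc and Ndufa8, and Th0 replicate 1 sits far below its group for Sdhd and Atp5b.

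Complex III carries electrons from ubiquinol to cytochrome c. All 7 of its measured genes had a lower mean in Th17 than in Th0, by 0.05 to 0.25, and 4 of 7 had a lower mean in Th2. Without the 3 arrays that stood apart, Uqcr11 and Uqcrq were 0.05 and 0.09 higher in Th17 than in Th0. Only Uqcrc2 and Uqcrh were then lower in Th2. Without Th17 replicates 2 and 3 and Th0 replicate 1, Uqcrb and Uqcrfs1 were 0.07 and 0.02 higher in Th17. Uqcrc2, a core protein, had 8.17, 7.73, 8.12 and 7.81 on Th17 arrays, 8.15, 7.89 and 7.73 on Th2 arrays, and 8.10, 8.15 and 8.31 on Th0 arrays. The groups overlapped, and its differences from Th0 were -0.23 ± 0.16 (SE) in Th17 and -0.26 ± 0.17 in Th2 (adjusted p = 0.999 and 0.837). Uqcrfs1, the Rieske iron-sulfur protein, was 5.83 to 6.12 on Th17 arrays, 6.03 to 6.50 on Th2 arrays and 6.01 to 6.17 on Th0 arrays. Uqcrb, which binds near the ubiquinone site, varied most (SD 0.34), and Uqcrh, the hinge protein of cytochrome c1, least (SD 0.15). Uqcrh had 8.53, 8.27, 8.47 and 8.37 on Th17 arrays, 8.42, 8.15 and 8.16 on Th2 arrays, and 8.51, 8.58 and 8.34 on Th0 arrays, with a difference of -0.23 ± 0.15 in Th2 against Th0, which was not called.

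Complex IV, cytochrome c oxidase, has several subunits that exist as a common form and a form known mainly from muscle, lung or testis. Cox4i2, the lung form of subunit 4, had 3.63, 4.05, 3.73 and 3.54 on Th17 arrays, 3.78, 4.10 and 4.31 on Th2 arrays, and 3.54, 3.20 and 3.50 on Th0 arrays. Both polarised groups lay above Th0, although Th17 replicate 4 and Th0 replicate 1 round to the same value, and all values were near the median gene (3.55). Its difference was 0.65 ± 0.19 (SE) in Th2 against Th0 (95% interval 0.23 to 1.07, adjusted p = 0.767), the smallest unadjusted p of any member (0.00583), and 0.33 ± 0.18 in Th17 against Th0 (adjusted p = 0.999). These became 0.37 ± 0.24 and 0.40 ± 0.17 without the 3 arrays that stood apart. Its common counterpart Cox4i1 had 9.69, 9.33, 9.51 and 9.36 on Th17 arrays, 9.72, 9.49 and 9.25 on Th2 arrays, and 9.49, 9.67 and 9.59 on Th0 arrays, with differences of -0.11 ± 0.15 and -0.10 ± 0.17 from Th0.

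The other paralog pairs gave no call either. The muscle form Cox6a2 was 4.58 to 4.67 on Th17 arrays, 4.53 to 5.10 on Th2 arrays and 3.98 to 4.73 on Th0 arrays, and its common form Cox6a1 was 9.91 to 10.32 on Th17 arrays, 9.77 to 10.29 on Th2 arrays and 10.29 to 10.30 on Th0 arrays. The testis form Cox6b2 differed by -0.35 ± 0.30 (SE) and 0.02 ± 0.32 in Th17 and Th2 against Th0, and the common form Cox6b1 by -0.12 ± 0.18 and -0.02 ± 0.19. The muscle form Cox7a1 differed by 0.06 ± 0.24 and -0.21 ± 0.26, and the common form Cox7a2 by -0.22 ± 0.16 and 0.01 ± 0.17. None of these differences exceeded 2 of its standard errors. Cox7b2, Cox8b and Cox8c, known from testis or muscle, stayed between 2.52 and 3.49 on all 10 arrays, near the low end of the scale. Their common forms were Cox7b, with differences of 0.18 ± 0.20 and 0.31 ± 0.21 from Th0, and Cox8a, with -0.24 ± 0.24 and -0.27 ± 0.26. Over the 8 tissue paralogs, which include Ndufa4l2, the median difference was -0.04 in Th17 against Th0, 0.07 in Th2 against Th0 and -0.26 in Th17 against Th2, where 7 of 8 were lower in Th17. That lean rested on the 3 arrays that stood apart: with them left out, 4 of 8 were lower in Th17 than in Th2 (median 0.01).

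Cox5a, a common subunit, was among the steadiest of complex IV (SD 0.13), at 9.57 to 9.68 on Th17 arrays, 9.52 to 10.00 on Th2 arrays and 9.63 to 9.72 on Th0 arrays. Cox7a2l, the supercomplex factor, had 7.42, 7.43, 7.30 and 6.91 on Th17 arrays, 7.63, 7.03 and 7.03 on Th2 arrays, and 6.69, 7.31 and 7.16 on Th0 arrays, and differed by 0.21 ± 0.22 (SE) in Th17 and 0.18 ± 0.23 in Th2 from Th0. Those differences were 0.33 and 0.58 without the 3 arrays that stood apart. The Th17 difference of Cox7a2l was -0.07 without Th17 replicates 2 and 3 and Th0 replicate 1. Its Th2 difference was -0.03 without Th2 replicate 1. Ndufa4, named for complex I but now counted as a subunit of complex IV, had 10.36, 9.72, 9.83 and 9.72 on Th17 arrays, 10.30, 9.48 and 10.01 on Th2 arrays, and 10.45, 10.07 and 10.20 on Th0 arrays. It was lower on average in both polarised groups, by differences of -0.33 ± 0.22 and -0.31 ± 0.24, but the groups overlapped. Its paralog Ndufa4l2, known as a hypoxia-induced gene, had 3.57, 3.76, 3.39 and 3.58 on Th17 arrays, 3.64, 4.11 and 3.86 on Th2 arrays, and 3.59, 3.33 and 3.42 on Th0 arrays, with 0.43 ± 0.17 in Th2 against Th0 (adjusted p = 0.767), or 0.20 ± 0.23 without the 3 arrays that stood apart, where Ndufa4 turned to 0.06 ± 0.28.

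Complex V makes ATP. It held 5 of the 8 members whose Th17 arrays all lay below all Th0 arrays. Atp5o, the stalk protein that holds the catalytic head, had 3.53, 3.50, 3.71 and 3.70 on Th17 arrays, 3.89, 3.74 and 3.65 on Th2 arrays, and 3.82, 3.88 and 4.00 on Th0 arrays, a difference of -0.29 ± 0.13 (SE) in Th17 against Th0 (adjusted p = 0.969). Atp5j2, subunit f of the membrane part, had 3.90, 3.87, 3.97 and 3.89 on Th17 arrays, 3.96, 3.61 and 3.98 on Th2 arrays, and 4.36, 4.32 and 3.98 on Th0 arrays, with -0.31 ± 0.15 in Th17 and -0.37 ± 0.16 in Th2 against Th0 (adjusted p = 0.973 and 0.777). Both probe sets read low, and differences between weak probe sets are compressed by RMA. Among well-read subunits, Atp5b, the catalytic beta subunit, varied most (SD 0.42): it had 10.42, 10.03, 10.13 and 10.39 on Th17 arrays, 10.58, 10.45 and 10.45 on Th2 arrays, and 9.20, 10.26 and 10.70 on Th0 arrays. All Th17 arrays lay below all Th2 arrays (difference -0.25 ± 0.29, adjusted p = 0.961), while Th0 held both its highest and its lowest array. Atp5l, subunit g, varied least of the well-read members (SD 0.09), at 10.65 to 10.93 on Th17 arrays, 10.75 to 10.90 on Th2 arrays and 10.77 to 10.95 on Th0 arrays.

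The c ring of complex V is encoded by 3 genes whose mature proteins are the same. Atp5g2 had 9.95, 9.80, 9.60 and 9.60 on Th17 arrays, 10.21, 9.88 and 9.81 on Th2 arrays, and 9.96, 10.04 and 10.07 on Th0 arrays. All Th17 arrays lay below all Th0 arrays, by -0.29 ± 0.15 (SE, adjusted p = 0.999), and Th2 overlapped Th0 (-0.06 ± 0.16). Atp5g3 had 8.94, 8.65, 8.78 and 8.73 on Th17 arrays, 8.99, 8.55 and 8.83 on Th2 arrays, and 9.05, 8.93 and 9.10 on Th0 arrays. Its differences from Th0 were alike in both polarised groups, -0.25 ± 0.15 and -0.24 ± 0.16, with overlap. Atp5g1 was 2.79 to 3.92 on Th17 arrays, 3.11 to 3.67 on Th2 arrays and 3.02 to 3.39 on Th0 arrays, at the low end of the scale.

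The subunits encoded by mitochondrial DNA did not follow the nuclear ones. The 10 measured genes averaged 10.96, 11.21, 11.29 and 11.65 on Th17 arrays, 11.52, 11.36 and 11.53 on Th2 arrays, and 11.17, 10.97 and 11.03 on Th0 arrays. All 3 Th2 arrays lay above all 3 Th0 arrays, and Th17 replicate 4, among the lowest arrays for nuclear subunits, was the highest for mitochondrial ones. In Th2 against Th0, 10 of 10 had a higher mean (median 0.41; 47.7% of all genes were higher), with no overlap of groups for any of the 10 (4.48% of all genes) and an unadjusted p under 0.05 for 5, and 0 were called by limma (lowest adjusted p = 0.767). In Th17 against Th0, 10 of 10 had a higher mean (median 0.21; 46.8% of all genes were higher), and in Th17 against Th2, 10 of 10 had a lower one (median -0.20). Their differences in Th2 against Th0 ran from 0.36 for ND4 to 0.49 for ND2, both subunits of complex I. These genes are transcribed together as long precursors, so 10 genes are not 10 independent observations. Without the 3 arrays that stood apart, the medians were 0.45 in Th2 against Th0, 0.10 in Th17 against Th0 and -0.35 in Th17 against Th2.

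**Figure D5:**
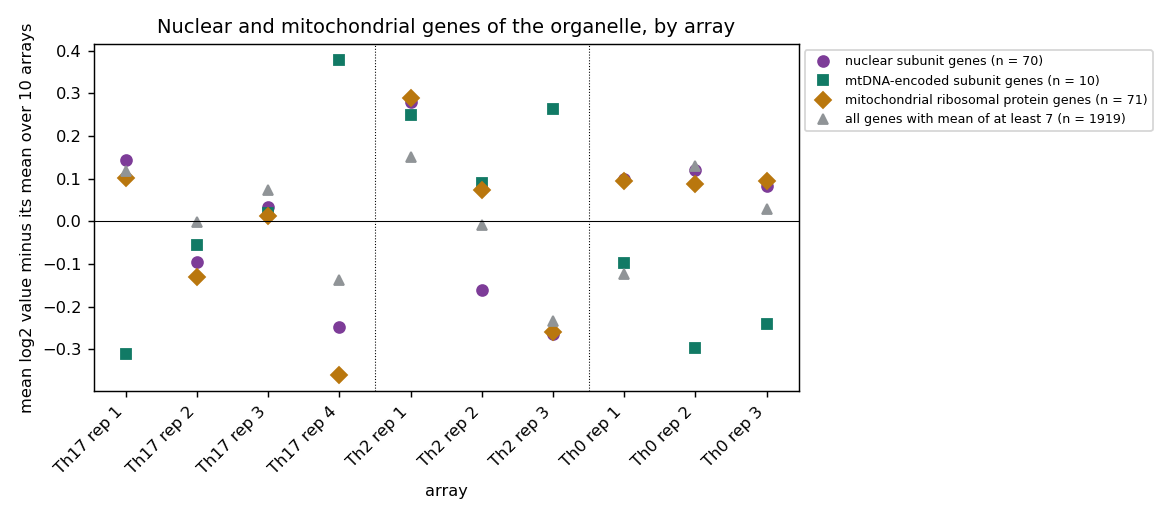
Mean log2 value of 4 gene sets on each array, minus the mean of that set over the 10 arrays, with the groups Th17, Th2 and Th0 from left to right. Nuclear subunit genes and mitochondrial ribosomal protein genes lie close together on most arrays. Genes encoded by mitochondrial DNA are high on Th17 replicate 4 and on Th2 arrays, and low on Th0 arrays and on Th17 replicate 1, the lowest array.

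Neighbouring mitochondrial pathways were read from gene lists. By limma, 0 of their genes were called in any comparison, and at most 7 genes of a list had an unadjusted p under 0.05. Of 71 mitochondrial ribosomal protein genes, 59 had a lower mean in Th17 than in Th0 (median -0.20), 40 in Th2 than in Th0 (median -0.02) and 50 in Th17 than in Th2 (median -0.14). With the 3 arrays that stood apart left out, 48 were lower in Th17 than in Th0 (median -0.10), 58 were higher in Th2 than in Th0 (median 0.19) and 66 were lower in Th17 than in Th2 (median -0.28). For Mrps28 of the small subunit the difference was -0.51 in Th17 against Th0 (adjusted p = 0.624), with 5.79 to 6.21 on Th17 arrays and 6.27 to 6.67 on Th0 arrays. Of 60 cytosolic ribosomal protein genes, 30 were lower in Th17 than in Th0, and 43 were higher in Th2 than in Th0 (median 0.13). Tricarboxylic acid cycle enzymes (16 genes) had medians of -0.10, -0.06 and -0.02 in Th17 against Th0, Th2 against Th0 and Th17 against Th2, and of -0.01, 0.22 and -0.28 without those 3 arrays. Among them Fh1, fumarate hydratase, which acts next after complex II, was 6.59 to 7.26 on Th17 arrays and 7.34 to 7.44 on Th0 arrays, a difference of -0.47 (adjusted p = 0.879).

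Carriers and partners of the chain outside the symbol rule showed the same lean. Of 8 such genes, 7 had a lower mean in Th17 than in Th0 (median -0.20) and 7 in Th2 than in Th0 (median -0.24). In Th17 that held for 8 genes without the 3 arrays that stood apart (median -0.26), but in Th2 6 genes were then higher (median 0.08). Etfb, which brings electrons from fatty acid oxidation to ubiquinone, differed by -0.82 in both comparisons (adjusted p = 0.949 and 0.793). Atpif1, the inhibitor of complex V, differed by -0.80 in Th2 against Th0 (adjusted p = 0.767), and Cycs, cytochrome c itself, by -0.22 in Th17 and 0.03 in Th2. Of 33 assembly factors outside the symbol rule, 20 were lower in Th17 than in Th0 and 19 in Th2 than in Th0 (medians -0.09 and -0.03), whereas without those arrays 19 were higher in Th17 and 32 were higher in Th2 (medians 0.02 and 0.20). Uqcc1, an assembly factor of complex III, was the furthest above Th0 in Th17, by 0.62 (adjusted p = 0.788), with every Th17 array at 4.36 or higher and every Th0 array at 4.27 or lower.

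Regulators of mitochondrial biogenesis leaned upward in Th2. Of 16 genes, 12 had a higher mean in Th2 than in Th0 (median 0.20), 11 a higher mean in Th17 than in Th0 (median 0.07) and 13 a lower mean in Th17 than in Th2 (median -0.25). The medians were 0.28, 0.11 and -0.18 without the 3 arrays that stood apart. Pprc1, a coactivator related to PGC-1, had 7.13, 7.10, 7.0 and 7.18 on Th17 arrays, 7.15, 8.19 and 7.46 on Th2 arrays, and 6.73, 6.85 and 6.84 on Th0 arrays, with a difference of 0.79 in Th2 against Th0 (adjusted p = 0.767). Both polarised groups lay above Th0, and Th2 replicates 2 and 3 were highest. Gabpa, the DNA-binding ETS factor whose letters were searched in the promoters, had 6.82, 6.66, 6.73 and 6.90 on Th17 arrays, 6.91, 7.41 and 7.43 on Th2 arrays, and 6.46, 6.89 and 6.97 on Th0 arrays. It was lower on every Th17 array than on every Th2 array (difference -0.47, adjusted p = 0.686). Tfb1m, which methylates mitochondrial ribosomal RNA, was lower on every Th17 array (4.49 to 4.69) than on every Th0 array (5.01 to 5.61), a difference of -0.69 (adjusted p = 0.385). Of 10 genes of coenzyme Q synthesis, 8 had a higher mean in Th2 than in Th0 (median 0.11) and 9 a lower mean in Th17 than in Th2 (median -0.18), where Coq2, which attaches the side chain, had the smallest p (difference -0.78, adjusted p = 0.608). These medians were 0.30 and -0.36 without the 3 arrays that stood apart.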

How the data were processed

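Messenger RNA was measured on 10 arrays (Th17, n = 4; Th2, n = 3; Th0, n = 3), grouped by sample titles. The deposited values are log2 expression per probe set, which the authors computed with RMA (Affymetrix Expression Console 1.3.0.187, per the submitters' processing notes). RNA was amplified with a whole-transcriptome kit, per the labels' protocols. No label names a genome build, no detection calls were used, and the number of arrays limits the precision.

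Of 41345 probe sets, 23521 had 1 symbol in the probe table, 1814 had several and 16010 were not in it. Probe sets with 1 symbol were used, and the one with the highest mean stood for each of 1082 genes with several (10 members), which left 22180 genes. The symbol rule matched 111 probe sets, 10 of them with several symbols.

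Group means were fitted to all 10 arrays with limma 3.58.1 in R 4.3.3 (lmFit, eBayes, 7 residual degrees of freedom). Two-sided p-values were adjusted (Benjamini-Hochberg) over all genes of each of 3 contrasts. No filter on low values was used. Means are given with SDs, and differences with moderated SEs. The fit was tested on simulated data. The members and lists were chosen with earlier results of these data known. Members were named if called, if smallest in p per contrast and complex, if in a paralog set or in complex II, or if of largest or smallest SD among subunits with a mean of at least 7; from each other list, up to 3 genes of smallest p were eligible. Any other gene named was picked once its values were known. Alternatives were other scalings, probe set rules, a low-value filter, variance models, array weights, fewer groups, replicate blocks and left-out arrays. Numbers shared across groups were not used as pairs in the main fit. Deviations of arrays with the same title number correlated between -0.31 and 0.30. Th2 replicate 3 carries the number 4 in its description, and its deviations correlated at 0.49 with those of Th17 replicate 4. Whether those arrays were prepared together is not stated. No 2 arrays were duplicates (at most 0.0631% of values identical).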

Additional observations from a re-analysis of the deposited data

Results flagged for a closer look

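The 4 Th17 arrays were tested for a single array far from the rest. Of 52 such sets of 4 values (named members and means of gene sets), 3 held an array whose gap to its nearest neighbour exceeded Dixon's 95% critical value for 4 samples, and chance alone gives about 1 in 20. Sdha, the flavoprotein of complex II, was 7.27 on Th17 replicate 4, against 7.71 to 7.75 on the other Th17 arrays. Sdhaf3, an assembly factor of complex II, was 2.62 on Th17 replicate 2, against 2.87 to 2.91 on the others, near the low end of the scale. Uqcrb of complex III was 8.72 on Th17 replicate 1, against 8.23 to 8.30 on the others.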

How the results depend on the processing

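Under 22 alternative settings, 0 members were called in Th17 against Th0 or Th17 against Th2. Th2 against Th0 also had 0 except without Th2 replicate 1, when 1 was (Ndufa8); leaving out 1 array at a time gave 0 to 1. For the 37 members named by rule, which do not include Ndufa8 and Ndufb11, 0 of 2295 alternative values passed the threshold and 196 had the other sign. Counts over all genes moved more. In Th17 against Th0 (23 genes) they were 6 with arrays centred on their medians, 60 with array weights, 46 without the 3 arrays that stood apart, 3 without the 3 arrays high in basophil markers (Th17 replicates 2 and 3 and Th0 replicate 1), and 2 (without Th0 replicate 3) to 36 (without Th2 replicate 1) with 1 array left out. In Th17 against Th2 (17 genes) they were 10 with the filter at a mean of 5, 330 with array weights, 6 without the arrays high in basophil markers, and 3 (without Th2 replicate 2) to 298 (without Th2 replicate 1) with 1 array left out. In Th2 against Th0 (0 genes) the count was 2 without the arrays that stood apart and 0 to 431 (without Th2 replicate 1) with 1 array left out.

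Without the arrays that stood apart, the medians in Th2 against Th0 were 0.16 over all members and 0.19, 0.29, 0.19, 0.10 and 0.080 for complexes I to V. In Th17 against Th2 they were then -0.25 over all members, -0.26 for complex I, -0.35 for complex II, -0.37 for complex III and -0.25 for complex V, and array weights gave 0.28 for complex II. Leaving out 1 array at a time gave medians in Th17 against Th2 of -0.093 to 0.22 for complex I, -0.14 to 0.27 for complex II, -0.20 to 0.13 for complex III and -0.11 to 0.033 for complex IV. In Th2 against Th0 it gave -0.29 to 0.057 for complex III and -0.10 to 0.047 for complex IV. The highest of the Th17 against Th2 medians and the lowest of the Th2 against Th0 medians came without Th2 replicate 1. Medians in Th17 against Th0 stayed below 0 under every setting run, but leaving out Th2 arrays cannot change them. With 1 array left out at a time they rose as far as -0.053 for complex I and -0.024 for complex II. The median over all genes was -0.015 with all arrays kept. The causes were not tested.

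With the replicate number as a block, the calls over all genes in Th17 against Th0 were 8 with the numbers of the titles and 5 with those of the descriptions, and in Th17 against Th2 they were 11 and 5; the block called 0 members. Whether the numbers pair the samples is not stated. Fits without the arrays that stood apart for the gene lists outside the members were added after seeing the data. Without detection calls, members that read near 3 cannot be told from background.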
